A study of Homo sapiens with 4 samples.

Results

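The HERV-H associated transcripts are 7 genes whose RNAs start in, or lie next to, copies of the endogenous retrovirus HERV-H in human pluripotent cells: ESRG, LINC00458, LINC-ROR, LINC01108, HHLA1, ABHD12B and SCGB3A2. They were listed by name, and they were selected on their KO and control values in these libraries, so their levels and fold changes are given as a description and nothing is drawn from tests of them. All 7 were found among the 60483 gene rows of each library, and all 7 passed the filter on low counts that left 19027 genes. The study has 2 libraries of control cells and 2 of cells with SLC35F2 knocked out (KO), all made from poly(A)-selected RNA of H9 (WA09), an established line of human embryonic stem cells. SLC35F2 is a membrane protein of the solute carrier families. The labels give no other allele, treatment or passage, and neither how the knockout was made nor whether the KO cells are 1 clone was stated in them.

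HERV-H entered the primate germline as a retrovirus and is present in many copies, most of them without intact genes. Its long terminal repeat (LTR), named LTR7, is active as a promoter in human pluripotent stem cells and is largely silent in differentiated cells. RNAs that begin in an LTR7 carry part of it in their first exon, and in this way a long non-coding RNA or an alternative form of a protein-coding gene can be driven by the repeat. ESRG and LINC-ROR are long non-coding RNAs known from human pluripotent cells and from reprogramming, and LINC00458 and LINC01108 are long intergenic RNAs described in human embryonic stem cells. HHLA1 takes its name from its association with a HERV-H LTR, ABHD12B belongs to a family of hydrolases, and SCGB3A2 is a secretoglobin best known as a secreted protein of the airway.

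The members were named for their link to HERV-H, so likeness between their starts follows from that choice and is described here, not tested. In the first 300 bases of the GENCODE 29 transcripts, the beginnings of ESRG, LINC00458, LINC-ROR and a non-coding isoform of ABHD12B aligned with one another on the same strand. ESRG and LINC00458 aligned over 251 bases at 95.6% identity, ESRG and LINC-ROR over 215 bases at 95.3%, and the ABHD12B isoform and ESRG over 177 bases at 96.0%. Whether these stretches are LTR7 sequence was not looked up, since no repeat annotation was used here.

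The other 3 members were less alike at their annotated starts. One SCGB3A2 transcript aligned on the opposite strand with LINC-ROR over 161 bases at 86.3% identity and with the ABHD12B isoform over 124 bases at 84.7%. HHLA1 matched inside a transcript rather than at its start, since an HHLA1 transcript aligned with ESRG over 109 bases at 96.3% and with another ABHD12B isoform over 410 bases at 93.4%. LINC01108 aligned with no other member at the minimum of 80 bases and 70% identity, in the start windows or over whole transcripts. The share of a gene's annotated transcripts with a match in their start window also differed. It was 8 of 8 for LINC-ROR, 5 of 6 for LINC00458 and the single transcript of ESRG. For ABHD12B it was 1 of 9 and for SCGB3A2 1 of 4. A match could lie anywhere in the window and on either strand. In the SCGB3A2 transcript it lay on the opposite strand, at base 150 or beyond, and not at the first base. Counts per gene add up all transcripts of a gene, so in ABHD12B and SCGB3A2 they include RNAs without a match in the start window. Reads that align to several places were not counted by the authors (6.35% to 6.88% of counted alignments per library), so sequence that many genes share can be under-counted.

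Levels are given as reads and as CPM, counts of a gene relative to the TMM-scaled library total, as edgeR gives them. Total reads assigned to genes ranged from 27824693 to 37978705 per library, and unassigned reads from 14.4% to 20.3%. The targeted gene SLC35F2 had 41.1 and 27.1 CPM in the controls against 12.1 CPM for KO 1 and 9.65 CPM in KO 2. No label says whether replicates came from separate cultures or clones, so the spread between replicates may be technical. In bulk RNA a lower share of cells expressing a transcript and less RNA per cell cannot be told apart.

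Each of the 7 members lay below both controls in both KO libraries. By mean CPM the controls were higher by between 2.05 times (ESRG) and 30.7 times (LINC01108). The long non-coding members are given first, then the protein-coding ones.

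ESRG (ENSG00000265992.1, chr3:54632122-54639857, minus strand, labelled sense intronic and lying within CACNA2D3) was by far the most abundant member. Control 1 held 31375 of its reads and control 2 39962, against 17462 for KO 1 and 10991 for KO 2, which is 831 and 1125 CPM in the controls against 635 and 321 CPM in the KO libraries. Both KO libraries were below both controls, but the gap was narrow, since the lower control was 1.31 times the higher KO library. The log2 fold change was -1.03 ± 0.35 (SE, 2 against 2 libraries), the smallest of the 7. ESRG alone made up 81.5% and 85.7% of the members' reads in the controls and 95.6% and 96.6% in KO.

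LINC00458 (ENSG00000234787.6, chr13:54115783-54132866, minus strand) had 978 and 1830 reads in the controls against 41 and 135 in KO. In CPM it stood at 25.9 and 51.5 in the controls and at 1.49 in KO 1 and 3.95 in KO 2, a log2 fold change of -3.80 ± 0.54. The controls themselves differed by 1.99 times, the widest control spread among the members, yet the lower control was 6.56 times the higher KO library.

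LINC-ROR (ENSG00000258609.2, chr18:57054558-57072119, minus strand) had the fewest reads of the members in the controls, 229 and 202, with 14 in KO 1 and 3 in KO 2. These are 6.07, 5.69, 0.509 and 0.0877 CPM, and the log2 fold change was -4.38 ± 0.73. The controls lay within 1.07 times of each other. The 3 reads in KO 2 carry an exact 95% Poisson interval of 0.619 to 8.77 reads, which covers counting error only, and the 14 reads in KO 1 one of 7.65 to 23.5 reads.

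LINC01108 (ENSG00000226673.1, chr6:14280127-14285454, minus strand), the member that aligned with no other member, had 427 and 419 reads in the controls and 7 and 17 in KO. Its 11.3 and 11.8 CPM in the controls against 0.255 and 0.497 CPM in the KO libraries gave the lowest log2 fold change of the members, -4.89 ± 0.60. The lower control was 22.8 times the higher KO library, the widest gap of the 7. With intervals of 2.81 to 14.4 reads in KO 1 and 9.90 to 27.2 reads in KO 2, the counting intervals of the KO libraries overlapped.

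The 3 protein-coding members were also lower in both KO libraries. HHLA1 (ENSG00000132297.10, chr8:132061486-132111159, minus strand) had 1176 and 774 reads in the controls, 60 in KO 1 and 6 in KO 2, or 31.2, 21.8, 2.18 and 0.175 CPM, with a log2 fold change of -4.57 ± 0.74. KO 1 was 12.4 times KO 2, the largest difference between the KO libraries among the members. ABHD12B (ENSG00000131969.13, chr14:50872160-50904970, plus strand) had 1483 and 1448 reads in the controls, 213 in KO 1 and 61 in KO 2, or 39.3, 40.8, 7.75 and 1.78 CPM, with a log2 fold change of -3.10 ± 0.58. SCGB3A2 (ENSG00000164265.7, chr5:147870682-147882191, plus strand) had 2809 and 1972 reads in the controls, 477 in KO 1 and 165 in KO 2, or 74.4, 55.5, 17.3 and 4.83 CPM, with a log2 fold change of -2.56 ± 0.54. For ABHD12B the lower control was 5.07 times the higher KO library, and for SCGB3A2 3.20 times.

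**Figure D1:**
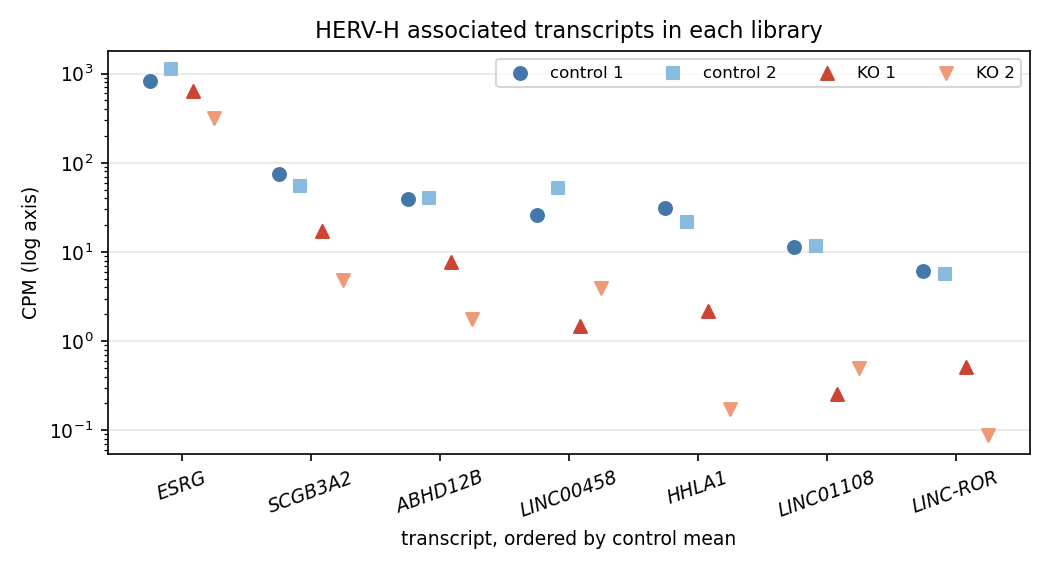
CPM of each member in the 4 libraries, on a log axis, with 1 point per library and the members ordered by their control mean. In each of the 7, both KO points lie below both control points. The closest groups are those of ESRG (831 CPM in control 1, 635 CPM in KO 1) and the widest gap is that of LINC01108.

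As RPKM (CPM per kilobase of exon, computed here so that genes can be compared), the control means ran from 311 for ESRG through 60.4 for SCGB3A2, 15.8 for LINC00458, 9.01 for ABHD12B, 4.31 for HHLA1 and 3.13 for LINC01108 to 1.51 for LINC-ROR. In control no neighbours in this order overlapped between the 2 libraries. In KO the order was less clear: ESRG (202 and 102) and SCGB3A2 (16.1 and 4.49) were still the highest, LINC00458 (0.610 and 1.62) and ABHD12B (1.74 and 0.401) overlapped, and so did HHLA1 (0.355 and 0.0286), LINC01108 (0.0689 and 0.134) and LINC-ROR (0.131 and 0.0226). Summed over the members other than ESRG, the controls had 188 and 187 CPM, KO 1 had 29.5 and KO 2 had 11.3.

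The KO libraries did not rank the members alike. KO 2 was below KO 1 in 5 members, ESRG, SCGB3A2, ABHD12B, HHLA1 and LINC-ROR, whereas KO 1 was below KO 2 in LINC00458 and LINC01108. For LINC01108 the counting intervals of the KO libraries overlapped, so its order is not settled by the reads. As a share of the control mean, KO 1 held 3.85% of LINC00458 and 2.20% of LINC01108 but 64.9% of ESRG, 26.7% of SCGB3A2 and 19.3% of ABHD12B. KO 2 held 10.2% of LINC00458 and 4.30% of LINC01108, and 32.9% of ESRG, 7.43% of SCGB3A2 and 4.46% of ABHD12B. Single fold changes therefore moved with the KO library used. Without KO 1 the log2 fold change was -7.20 for HHLA1, -6.00 for LINC-ROR, -4.47 for ABHD12B and -3.74 for SCGB3A2, and without KO 2 it was -3.60, -3.52, -2.37 and -1.90 in the same order. LINC00458 had -3.28 without KO 1 and -4.69 without KO 2, LINC01108 -4.52 and -5.48, and ESRG -1.59 and -0.62.

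Over all tested genes, 16.3% lay below both controls in both KO libraries and 15.8% were higher in both. The members' 7 of 7 is given beside these shares without being read as evidence, since they were picked on this contrast. Their median log2 fold change was -3.80, against 0.029 over all 19027 tested genes. By edgeR's quasi-likelihood test with Benjamini-Hochberg adjustment, 5 genes (0.0263%) were called over the whole table and none was a member. All 7 members had an unadjusted p under 0.05, as had 773 (4.06%) of all tested genes. DESeq2 called 5 of them among 60 genes in all (0.315%), and limma-voom called 0 genes (0%).

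To see whether the pattern of the members extended to genes chosen without any expression value, other genes were found by sequence alone. A gene was taken as start-matched if its start windows, the first 300 bases of its transcripts, aligned with those of at least 2 members. Each alignment had to cover at least 80 bases at 70% identity or more, on either strand. Different transcripts of a gene could match different members. Of 58676 genes searched, 74 (0.126%) met this, 5 of them members, and of the other 69 the count files held 67 and 38 passed the filter on low counts. Most are non-coding: 38 lincRNAs, 12 antisense RNAs, 4 processed transcripts and 1 transcribed pseudogene, against 14 protein-coding genes. The search in transcript starts was chosen after seeing that the RefSeq promoter table held only 3 of the 7 members and gave no match among 35116 windows. Start-matched genes share sequence with one another by construction, so their number is not a number of independent observations.

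Of the 38 tested start-matched genes, 24 (63.2%) lay below both controls in both KO libraries, 0 were higher in both and 14 overlapped. Among all tested genes the share lower in both was 16.3%, and among all tested long non-coding RNA genes it was 28.5%. Their median log2 fold change was -1.29. In edgeR's test 1 was called, and 19 had an unadjusted p under 0.05, all of them lower in KO, against 571 (3%) of all tested genes that were lower with such a p. The filter on low counts can let in a gene through its control level alone, and so can a minimum mean level. Without the filter, 29 of 63 start-matched genes with any read (46.0%) were lower in both KO libraries, against 14.7% of all genes with any read. At a mean level of 1 CPM or more it was 19 of 29 (65.5%), against 13.7% of all genes at that level. The long non-coding ones among them numbered 16 of 19 (84.2%), against 28.6% of all long non-coding RNA genes at that level. HHLA1 overlaps one of the 38, AC100868.1, and without it 23 of 37 (62.2%) were lower in both. Summed over the 38 genes the level was 1118 and 1406 CPM in the controls against 724 and 636 CPM in the KO libraries.

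The called gene was AC003975.1 (ENSG00000197462.3, a lincRNA at chr7:125917871-125933832, plus strand, GRCh38). It had 40.4 and 58.5 CPM in the controls against 4.51 and 3.77 CPM in the KO libraries. The log2 fold change of -3.58 ± 0.37 had a 95% interval from -4.42 to -2.75 (edgeR adjusted p = 0.0315), and both KO libraries were lower than both controls. Over the 11 alternative settings its adjusted p ranged from 1.2e-17 to 0.155 and it was called in 6, with a log2 fold change between -3.81 and -3.29. It was not called without control 1, without control 2, with library size only, with a mean CPM of at least 1 or by limma-voom. AC027288.1 (ENSG00000257474.4, a lincRNA at chr12:79540203-79550535, plus strand) had 17.1 and 15.1 CPM in the controls against 1.16 and 0.585 CPM in the KO libraries. Its log2 fold change of -4.23 ± 0.52 just missed the threshold (edgeR adjusted p = 0.0588, range 7.1e-15 to 0.497 over 11 alternatives, called in 5). Over their start windows, AC003975.1 aligned with ESRG over 250 bases at 87.2% identity and AC027288.1 with LINC00458 over 246 bases at 91.9%.

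**Figure D2:**
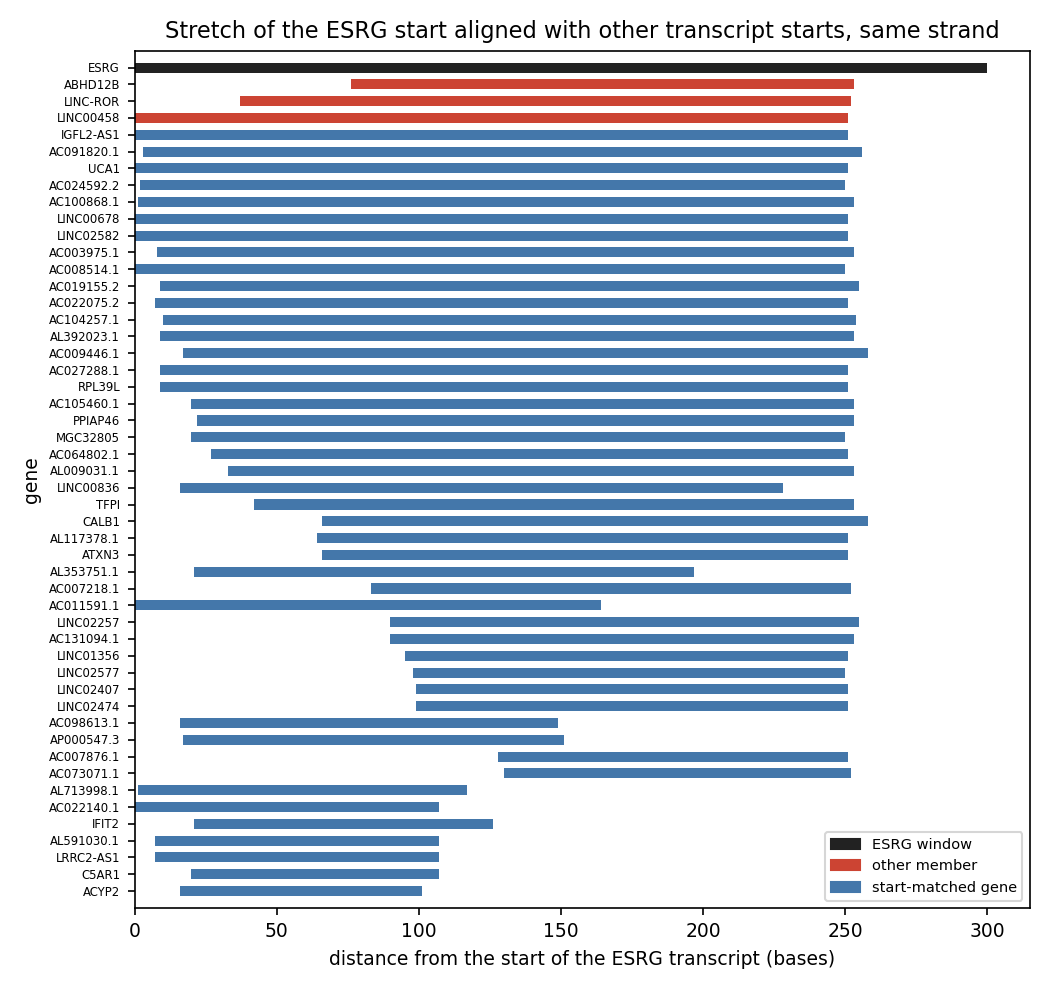
Bars mark the stretch of the ESRG start (x axis, bases from its first base) that aligned on the same strand with the start of another member (red) or of a start-matched gene (blue), 1 row per gene. The bars begin at many positions, and most end close to base 251.

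The 8 most abundant start-matched genes were AC064802.1, AL117378.1, LINC00678, AC009446.1, C13orf42, RPL39L, ATXN3 and OIP5-AS1. The non-coding RNA AC064802.1 had 125 and 225 CPM in the controls, 12.3 in KO 1 and 1.11 in KO 2, a log2 fold change of -4.73 ± 1.05. LINC00678 had 228 and 252 CPM in the controls, 158 in KO 1 and 44.8 in KO 2 (-1.24 ± 0.52), so that, as in ESRG, KO 2 was the lower of the KO libraries. AL117378.1 had 91.2 and 122 CPM against 42.2 and 24.6 CPM (-1.68 ± 0.34), and AC009446.1 had 98.8 and 138 CPM against 52.6 and 59.2 CPM (-1.08 ± 0.29). In these 4 long non-coding RNAs the groups did not overlap, and none was called by edgeR (adjusted p from 0.507 to 0.997).

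The other 4 overlapped between the groups. RPL39L, a ribosomal protein gene related to RPL39, had 55.2 and 64.8 CPM in the controls against 37.6 and 84.2 CPM in the KO libraries. ATXN3, which encodes the deubiquitinase ataxin-3, had 27.0 and 30.7 CPM against 24.0 and 35.9 CPM. C13orf42 had 91.5 and 97.0 CPM against 111 and 42.8 CPM. The antisense RNA OIP5-AS1, which matched only on the opposite strand, had 155 and 179 CPM against 179 and 207 CPM. Their log2 fold changes lay between -0.29 and 0.21.

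Split by biotype, 21 of 27 tested long non-coding start-matched genes (77.8%) and 2 of 10 protein-coding ones (20%) were lower in both KO libraries, with medians of -1.46 and -0.13. The difference between the biotypes was not tested. The next 2 splits were made after these values were seen. Where at least 50% of a gene's annotated transcripts had a match in their start window, 20 of 24 genes (83.3%) were lower in both KO libraries. Where fewer had one, it was 4 of 14 (28.6%). A match could lie anywhere in the window, so this split does not sort genes by transcripts that begin with the matched sequence. In a LINC01356 transcript, the alignment with ESRG ended at base 294, past a first exon of 136 bases. The same share was 16.3% over all tested genes and 28.5% over all tested long non-coding RNA genes. RPL39L has 1 matched transcript of 3, ATXN3 3 of 58 and OIP5-AS1 1 of 10. The 4 lower genes in the group under 50% were LINC02582 (1 of 3), AC008514.1 (1 of 3), MGC32805 (2 of 5) and SEMA3E (1 of 8). Which transcripts the reads came from was not measured. Of 44 genes in the files that aligned with the ESRG start on the same strand, 20 tested genes had an alignment that ended within 3 bases of the end of their first exon. Among these 20 genes, 16 (80%) were lower in both KO libraries, and of the 8 tested genes whose alignment ended elsewhere, 4 (50%) were. By biotype, the 20 divided into 15 lower of 16 that are not protein coding (93.8%) and 1 of 4 protein-coding ones (25%). Neither split held biotype fixed, and no difference was tested.

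**Figure D3:**
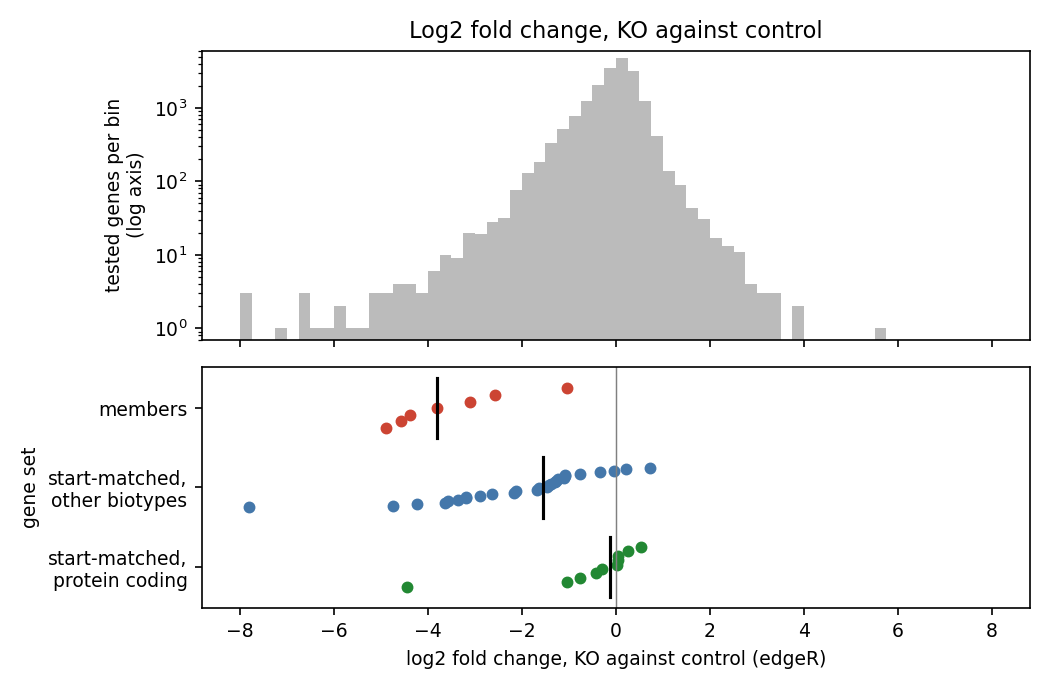
Upper panel, the number of tested genes per bin of log2 fold change (KO against control, bins of 0.25, log axis, values beyond -8 or 8 placed in the end bins). Lower panel, 1 point per gene for the members, the start-matched genes of other biotypes and the protein-coding start-matched genes, spread vertically for legibility, with a black line at each median. The members' median is -3.80 and the protein-coding start-matched genes centre near 0, with AC100868.1 (-4.43) far to the left of them.

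In the start-matched genes, too, neither KO library was uniformly the lower one. KO 2 was below KO 1 in 20 of the 38 and KO 1 was below KO 2 in 17. Over the 38 genes, the median difference in log2(CPM + 0.5) from the controls' mean was -0.77 for KO 1, -1.20 for KO 2 and -0.14 and 0.14 for the controls.

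**Figure D4:**
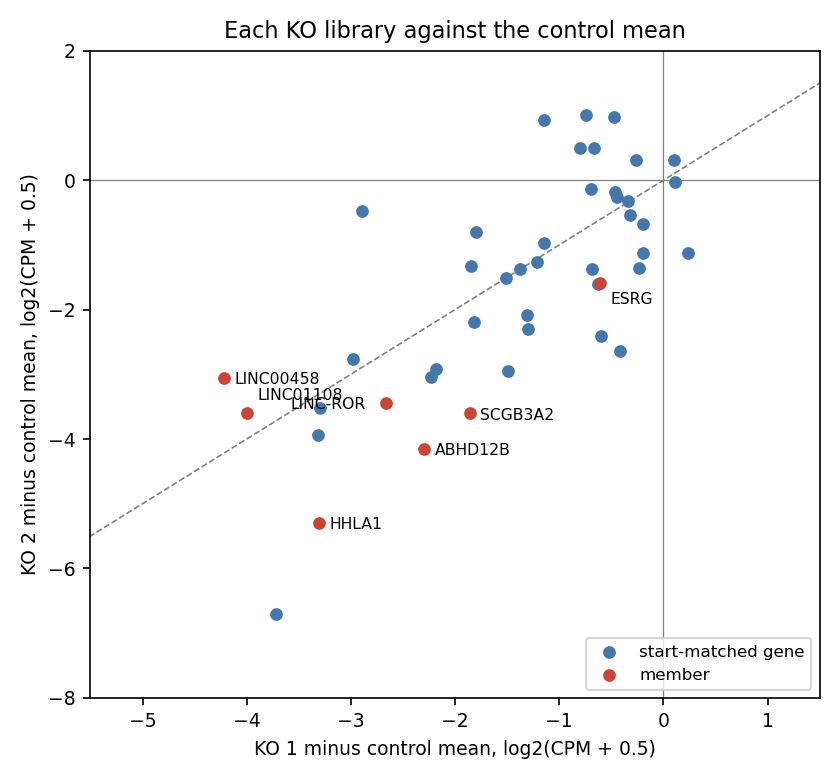
Each point is a gene, at its log2(CPM + 0.5) difference from the control mean in KO 1 (x axis) and in KO 2 (y axis), red for members and blue for start-matched genes. The dashed line marks equal differences. All 7 members are in the lower left quadrant, with LINC00458 and LINC01108 above the dashed line and the other 5 below it.

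Genes near the members were examined to see whether the lower level spread along the chromosome. Within 250 kb of the members' starts there are 39 other annotated genes in the files, of which 12 were tested. None was called by edgeR, 2 had an unadjusted p under 0.05, DESeq2 called 1 and limma-voom 0. Of the 12, 7 (58.3%) were lower in both KO libraries, against 16.3% of all tested genes, 0 were higher in both, and their median log2 fold change was -0.51. The 2 were AC100868.1, a gene annotated as protein coding that overlaps HHLA1 and itself begins with the matched sequence, and C5orf46, which overlaps SCGB3A2. AC100868.1 had 3.31 and 3.21 CPM in the controls against 0.327 CPM for KO 1 and 0 reads in KO 2. C5orf46 had 75 and 27 reads in the controls against 7 and 0 in KO. Reads of overlapping genes may not be fully separated. AC100868.1 and HHLA1 lie on the same strand, where a strand setting cannot tell their reads apart. C5orf46 and SCGB3A2 lie on opposite strands, and no source used here states the strand setting of the counting.

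The nearest tested genes on each side of the members numbered 14, with none called by edgeR (4 at an unadjusted p under 0.05, 1 called by DESeq2, 0 by limma-voom), 9 (64.3%) lower in both KO libraries and 1 higher in both. That share was above the 16.3% of all tested genes, and the difference was not tested. It is not separate from the share among the 12 tested genes within 250 kb. PYGL, NIN, AC100868.1, CD83, C5orf46 and SPINK1 are in both sets. Of these, PYGL, AC100868.1, CD83 and C5orf46 were lower in both KO libraries, and all but CD83 overlap a member. At ABHD12B, the overlapping gene PYGL, which encodes liver glycogen phosphorylase, had a log2 fold change of -0.60 ± 0.28, and NIN, a centrosome protein gene on the other side, -0.17 ± 0.29. ESRG lies in CACNA2D3, a calcium channel subunit gene on the other strand, which had -0.46 ± 0.46, and the WNT ligand gene WNT5A had -0.40 ± 0.46. KCNQ3, a potassium channel gene beyond HHLA1, had -1.51 ± 0.54 (edgeR adjusted p = 0.997). At LINC-ROR, TXNL1 (0.25) was the gene higher in both KO libraries and ST8SIA3 (-0.34) overlapped. At LINC00458, PCDH8 (-1.10) was lower in both and RPL13AP25 (0.15) overlapped. At LINC01108, AL109914.1 (-2.24) and CD83 (-0.86) were lower in both. SPINK1 near SCGB3A2 had -0.37 and overlapped. Several of the 14 lie beyond 250 kb of their member. From start to start, the distance was 1284 kb for PCDH8, 851 kb for WNT5A and 420.5 kb for TXNL1. It was 370 kb for KCNQ3, 314 kb for AL109914.1, 308 kb for RPL13AP25 and 279 kb for ST8SIA3. CACNA2D3 starts 517 kb from the start of ESRG, which lies within it. C5orf46 (-3.56) was the one of the 14 with a lower log2 fold change than the member beside it.

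Of 6 other genes linked to HERV-H, 4 were tested. Of these, 1 was lower in both KO libraries (16.3% of all tested genes were) and 0 were higher in both (15.8% were). None was called by edgeR (1 at an unadjusted p under 0.05), DESeq2 or limma-voom. That gene was C4orf51, with 0.901 and 1.07 CPM in the controls against 0.218 and 0.0877 CPM in the KO libraries. CALB1, a calcium-binding protein gene that is also start-matched through 3 of its 11 transcripts, had 23.7 and 15.0 CPM against 15.9 and 7.08 CPM. ERVH48-1, which encodes a secreted envelope-derived protein, had 13.0 and 17.0 CPM in the controls, 2.58 in KO 1 and 20.5 in KO 2. HHLA3 had 3.68 and 7.77 CPM against 3.96 and 9.04 CPM. HHLA2 and OC90 were not tested, with at most 2 reads in any library. Of 4 tested loci of other retroviral families, ERVW-1 and ERVK3-1 were lower in both KO libraries, as were 16.3% of all tested genes. ERV3-1 and ERVMER34-1 overlapped. None of the 4 was called by edgeR (1 at an unadjusted p under 0.05), DESeq2 or limma-voom.

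Of 5 factors described as activators of HERV-H, all tested, none was called by edgeR (1 at an unadjusted p under 0.05), DESeq2 or limma-voom. Among them 1, NANOG, was lower in both KO libraries, as were 16.3% of all tested genes. NANOG had 61.2 and 64.7 CPM in the controls, 46.2 in KO 1 and 19.1 in KO 2 (log2 fold change -0.95). POU5F1 had 282 and 306 CPM against 401 and 227 CPM, and SOX2 had 365 and 314 CPM against 327 and 427 CPM. KLF4 had 3.34 and 9.32 CPM against 1.05 and 5.24 CPM, and TFCP2L1 had 5.09 and 7.91 CPM against 3.20 and 6.73 CPM. The silencing genes TRIM28, a corepressor, and SETDB1, a histone H3 lysine methyltransferase, were both higher in both KO libraries, as were 15.8% of all tested genes. Neither was called by edgeR (0 at an unadjusted p under 0.05), DESeq2 or limma-voom. TRIM28 had 921 and 641 CPM against 1102 and 1072 CPM, and SETDB1 had 50.7 and 52.7 CPM against 64.6 and 74.3 CPM. ZNF534, the other listed silencing gene, was not tested, with 0 reads in each control, 1 in KO 1 and 14 in KO 2.

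Markers of the cell state were set beside these values. Of 15 pluripotency markers, none was called by edgeR (2 at an unadjusted p under 0.05), DESeq2 or limma-voom. Among them 3 (NANOG, PRDM14 and L1TD1) were lower in both KO libraries and 1 (LIN28A) was higher in both. Over all tested genes the shares were 16.3% lower and 15.8% higher in both. The markers' summed level was 9878 and 9631 CPM in the controls, 10310 in KO 1 and 6822 in KO 2. KO 2 thus had the lowest sum, and it was also the lower KO library for 5 of the 7 members. Summed levels were 3.63 and 7.23 against 2.51 and 0.790 CPM for 5 mesoderm markers, and 2.23 and 4.73 against 2.15 and 2.57 CPM for 5 endoderm markers. For 5 trophoblast and amnion markers they were 14.5 and 20.6 against 18.0 and 19.1 CPM. Most of this was KRT7, with 13.67 and 13.85 CPM against 17.78 and 16.55 CPM. Of the 4 tested, KRT7 was higher in both KO libraries, CDX2 was lower in both and 2 overlapped. CDX2 had 16 and 11 reads in the controls against 0 in each KO library. None of the 4 was called by edgeR (1 at an unadjusted p under 0.05), DESeq2 or limma-voom. Neuroectoderm markers summed to 466 and 780 against 529 and 927 CPM, nearly all of it NES. The 6 fibroblast markers summed to 541 and 874 against 570 and 1113 CPM. LUM and DCN were at 0.106 CPM or less in every library, whereas the collagen gene COL1A1 had 128 and 300 CPM in the controls, 46.8 in KO 1 and 552 in KO 2. COL1A2 ranged from 93.6 to 221 CPM, THY1 from 297 to 429 CPM and COL3A1 from 0.0563 to 3.66 CPM, and the groups overlapped in each. The part of these markers in the members' levels was not tested.

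The genes most like the members were sought by their profile alone. The members' median profile, log2(CPM + 0.5) centred on each gene's mean, was 1.58 and 1.64 in control, -1.14 in KO 1 and -1.91 in KO 2. Among 15050 tested genes that averaged 1 CPM or more, the 8 with the smallest root mean square distance to it over the 4 libraries were LINC00707, MT1M, AC007218.1, AC027288.1, ZNF595, AC003975.1, AC100868.1 and ENSG00000274524.1, at distances of 0.10 to 0.33 on the log2 scale. LINC00707 had 6.57 and 6.16 CPM in the controls against 0.400 and 0.0877 CPM in the KO libraries. MT1M, a metallothionein gene, had 3.23 and 4.25 CPM against 0.0727 CPM and 0 reads, and ZNF595, a zinc finger gene, had 4.19 and 3.29 CPM against 0.0727 and 0.0293 CPM. Of the 8, 4 were start-matched: AC007218.1, AC027288.1, AC003975.1 and AC100868.1, the last of which overlaps HHLA1. Of all 15050 genes compared, 29 were start-matched. Among the members, LINC-ROR lay closest to the median profile (0.078) and ESRG farthest (1.03).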

How the data were processed

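Poly(A)-selected RNA was sequenced in 4 libraries of H9 cells, whose titles give the group. The submitters' processing notes list FastQC 0.11.7, STAR 2.6.0a, cutadapt 1.8.1 and HTSeq 0.11.0, with the build GRCh38. The authors deposited raw counts of reads per gene as whole numbers, although the labels' protocols also mention quantile normalisation. The annotation release was not stated, nor was the strand setting. Identifiers were matched without version to GENCODE 29 (56753 of 60483, 93.8%).

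Genes were filtered with filterByExpr (minimum count 10), scaled by TMM and tested with edgeR 4.0.16 in R 4.3.3 (quasi-likelihood, robust). Tests were two-sided, with p-values adjusted by Benjamini-Hochberg over 19027 genes and a threshold of 0.05. The fit was checked on simulated counts. Transcript starts were aligned with blastn 2.17.0 (word size 11), and the aligned sequences are not reported here. Replicate counts differed beyond sampling noise in both groups, so no library was a copy.

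Alternatives were RLE factors, library size only, other filters, DESeq2 1.42.0, limma-voom (limma 3.58.1), a block for the replicate number, the omission of each library, and stricter or same-strand sequence matches. The members and all lists were chosen with earlier results of these data known. Genes named are the members, the listed genes, the nearest tested gene on each side of a member, the 8 most abundant start-matched genes and the 8 genes with the most similar profile. The genes under other observations, and the lower genes named in the split by matched transcripts, were named after their values were seen.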

Additional observations from a re-analysis of the deposited data

How the results depend on the processing

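All 7 members kept a negative log2 fold change under each of the 11 alternatives (71 of 77 values moved by less than the spread between replicates), and their median ranged from -4.47 to -3.23. This is a description only. The members were picked on this contrast and were lower in both KO libraries, so leaving out 1 library could hardly turn their sign. The count of start-matched genes lower in both KO libraries was 24 and ranged from 19 (mean CPM of at least 1) to 35 (without KO 2). Leaving out 1 library makes the criterion easier for any gene: the counts were 28 to 35 and the share of all tested genes 27.4% to 37.8%. The number of calls depended on the setting far more. Over all genes it was 5, against 0 with library size only, a mean CPM of at least 1 or limma-voom, 8 without a filter, 60 with DESeq2, 76 with the replicate block and 3 to 1096 with 1 library left out (1096 without KO 1, 188 without KO 2). Start-matched genes called were 1, against 0 with library size only, mean CPM of at least 1 or limma-voom, 2 without a filter, 7 with DESeq2, 9 with the replicate block and 0 to 19 with 1 library left out. Of the flanking genes, 0 were called, 1 with DESeq2, 1 with the replicate block and up to 3 with 1 library left out. Of the other HERV-H linked genes and regulators, 0 were called and 0 to 3 with 1 library left out. Where 1 library was left out, the lone sample was assumed to vary like the other group, and the cause of the changed counts was not tested. Of the members themselves, DESeq2 called 5 and the replicate block 6. Same-numbered libraries deviated together (r = 0.394 across 15060 genes), but no label says that a number marks a shared day or culture. Promoter windows of the RefSeq table gave 0 matched genes, and 24 genes lower in both came from transcript starts, chosen after seeing the data. Wider genome windows around gene starts were not run because no genome was used here. Members with few KO reads (3 reads of LINC-ROR and 6 of HHLA1 in KO 2) limit the size of their fold changes.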

Other observations

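Several start-matched genes outside the most abundant ones had levels shaped like those of the members; they are given as values and were chosen after their values were seen. AC091820.1, an antisense RNA, had 8.37 and 6.62 CPM in the controls against 0.509 and 0.673 CPM in the KO libraries, and it aligned with the ESRG start over 253 bases at 94.9% identity. LINC02582 had 3.39 and 6.19 CPM against 0.946 and 0.614 CPM, and MGC32805 had 4.61 and 5.69 CPM against 1.78 and 0.644 CPM. PPIAP46, a transcribed pseudogene, had 7.02 and 2.79 CPM against 1.27 and 0.146 CPM. None of these 4 passed edgeR's adjusted threshold. LINC01356 had 29.3 and 44.0 CPM in control, 4.40 in KO 1 and 25.7 in KO 2. TFPI, which encodes tissue factor pathway inhibitor and has 1 matched transcript of 12, had 6.52 and 8.16 CPM in control, 3.02 in KO 1 and 14.3 in KO 2. Of the 69 start-matched genes, 29 in the files were too low to test, and 4 of these had 0 reads in all 4 libraries.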
